A study of Mus musculus with 6 samples.

Results

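Schwann cells wrap the axons of peripheral nerves, and sympathetic nerves carry the signal that turns on heat production in brown adipose tissue (BAT). The genes described here are 8 genes of Schwann cells and nerve fibres, namely *Mbp*, *Pmp22*, *Prx*, *Sox10*, *S100b*, *Ngfr*, *Th* and *Ncam1*. They were chosen by their symbol, and each symbol matched 1 of the 47729 genes in the tables of the 6 mice. The mice were male, wild type and C57BL/6J, and were fed from 6 to 10 weeks of age either a 45% high-fat diet (HFD) or a standard rodent diet, named LFD in the sample titles, with 3 mice in each diet. Each mouse gave 1 RNA-Seq library from the BAT on the right side between its shoulder blades, and the study chose its mice to span the range of fat mass within a diet, so that the spread between mice includes a spread in fatness. The labels do not tell which replicate number is which of these, and p-values measure only the spread between these mice.

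In a sympathetic nerve, the noradrenaline-making axons lie in the troughs of non-myelinating Schwann cells, while myelinating Schwann cells wind a lipid-rich sheath around larger axons. Most of the nerve cell bodies sit in ganglia outside the fat, so that a piece of BAT holds axons and glia but few neuronal transcripts. *Sox10* encodes the transcription factor that sets glial identity, *S100b* a calcium-binding protein, *Ngfr* the low-affinity neurotrophin receptor p75 and *Ncam1* an adhesion molecule of glia, nerve, muscle and NK cells. *Mbp*, *Pmp22* and *Prx* encode proteins of the myelin sheath or its Schwann cell membrane, and *Th* encodes tyrosine hydroxylase, the rate-limiting enzyme of noradrenaline synthesis.

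Each library held between 17156991 and 21603487 rounded counts, and mitochondrially encoded genes took between 3.87% and 22.7% of them, with LFD replicate 3 lowest on both measures. No pair of mice of a diet was a repeated library. The brown fat gene *Ucp1* was listed at 2728, 4021 and 796 TPM (a level corrected for gene length and scaled to the same total in each mouse) in HFD replicates 1, 2 and 3 and at 443, 11.0 and 76.0 TPM in LFD replicates 1, 2 and 3. In LFD replicate 2, *Cidea* and *Elovl3*, further genes of brown fat, were also low at 18.9 and 0.71 TPM, and skeletal muscle markers summed to 9925 TPM. These values of LFD replicate 2 go against its label as BAT, while its general adipocyte gene *Adipoq* was high at 2015 TPM. LFD replicate 3 was low in these genes as well, with *Cidea* at 38.6 and *Elovl3* at 1.59 TPM. Its brown fat gene *Cox7a1* was lower than in LFD replicate 2, at 45.9 against 125 TPM, so its label is open to the same question. The diet differences are therefore also given without LFD replicate 2 and, for the tested genes of the 8 and some others, without LFD replicate 3. No comparison leaves out both mice, so this question is not settled here. The closing section gives the range over all mice left out in turn for the tested genes of the 8. The summed TPM of 12 skeletal muscle markers was between 7.33 and 150 in HFD-fed and between 1518 and 9925 in LFD-fed mice, and that of 8 NK cell markers was between 17.5 and 58.7 in HFD-fed and between 1.05 and 10.5 in LFD-fed mice. Neither range overlapped between the diets, and in bulk tissue fewer cells of a type and less RNA per cell cannot be told apart.

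The 8 genes covered a wide range of levels. Over the 6 mice, mean TPM ± SD was 99.3 ± 42.2 for *Pmp22*, 31.3 ± 37.6 for *S100b*, 13.4 ± 4.64 for *Mbp*, 3.72 ± 4.13 for *Ncam1*, 0.893 ± 0.524 for *Prx*, 0.637 ± 0.367 for *Ngfr*, 0.380 ± 0.296 for *Sox10* and 0.0533 ± 0.0864 for *Th*. *Pmp22* stood above 94.0% of the 17668 genes that passed the filter on low counts, *S100b* above 79.4% and *Mbp* above 60.1%, whereas *Sox10* stood above 3.67%. Of the 7 pairs of neighbours in this order, *Mbp* lay above *Ncam1* and *Sox10* above *Th* in 6 of 6 mice, with an exact sign-flip permutation p of 0.03125 each, the smallest that 6 mice allow, and an adjusted p of 0.109 over the 7 pairs. No pair had a lower adjusted p. *S100b* and *Mbp* had no fixed order over the 6 mice by this test, which takes no account of diet. *S100b* was the higher gene in 3 of 6 mice, the HFD-fed ones, and the lower gene in the LFD-fed ones. *Prx* and *Ngfr* did not differ beyond their spread, with *Prx* higher in 3 of 6 mice.

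**Figure D1:**
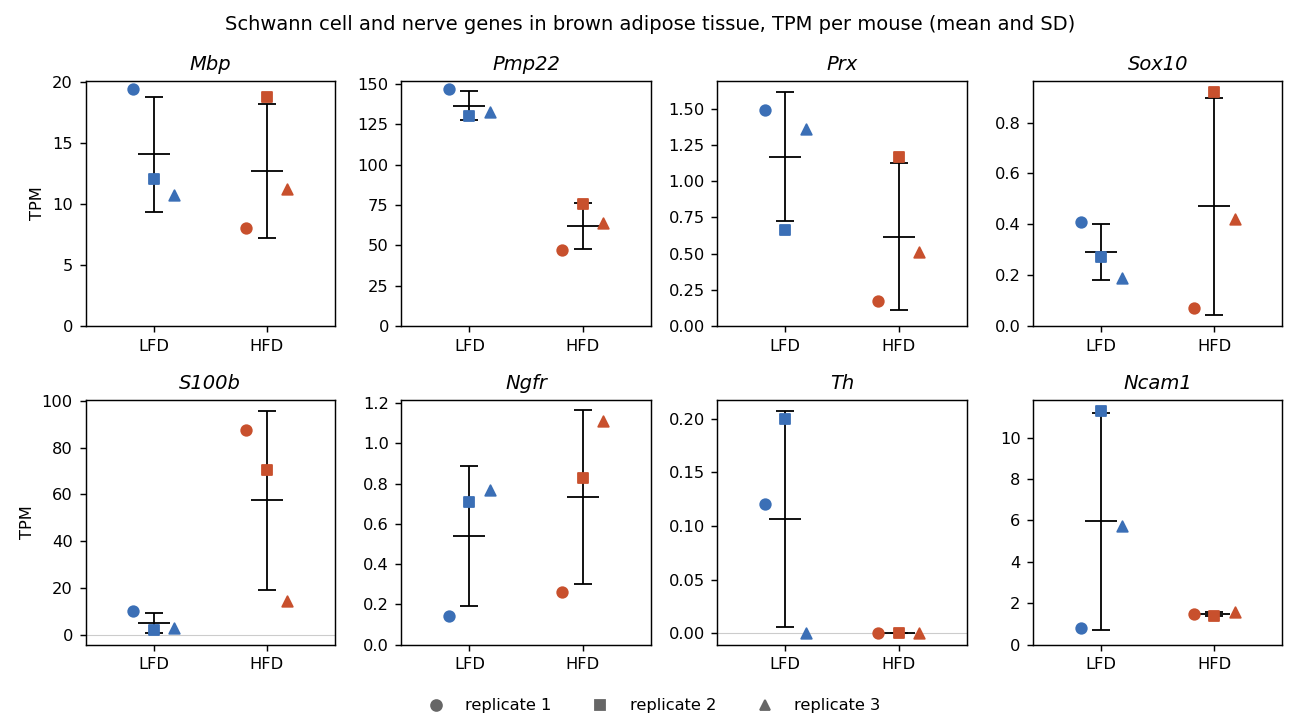
TPM of the 8 genes in each mouse, by diet, with the mean (long bar) and SD (n = 3 mice), each panel on its own linear scale in TPM. *Pmp22* lies lower and *S100b* higher in all 3 HFD-fed mice, and the other 6 genes overlap between the diets.

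HFD-fed and LFD-fed mice were compared to ask whether diet-induced obesity went with a different level of these glial and nerve transcripts. Among the 8 genes, *S100b* and *Pmp22* stood apart in opposite directions: *S100b* was 11.9-fold higher in HFD-fed mice and *Pmp22* 1.93-fold lower. *Sox10*, *Mbp*, *Prx*, *Ngfr* and *Ncam1* varied as much between mice of a diet as between the diets, and *Th* was close to absent. Without LFD replicate 2, log2 fold changes were 3.14 for *S100b*, -1.09 for *Pmp22*, -1.31 for *Prx*, -0.54 for *Ncam1*, 0.94 for *Ngfr*, 0.38 for *Sox10* and 0.077 for *Mbp*, in the same directions as with all mice. Without LFD replicate 3 they were 3.15 for *S100b*, -1.15 for *Pmp22*, -1.09 for *Prx*, -0.73 for *Ncam1*, 0.90 for *Ngfr* and 0.22 for *Sox10*. *Mbp* reversed there, to -0.067. By edgeR's quasi-likelihood test, 7 genes passed the filter on low counts and 0 of them were called at an adjusted p under 0.01 with an absolute log2 fold change above 1.5. Among all genes tested, 0% were called in either direction at these limits. At an unadjusted p under 0.05 there were 2 of the 7, 1 higher and 1 lower, where 3.86% of all genes tested were higher and 6.62% lower. Without LFD replicate 2, *Pmp22* kept an unadjusted p under 0.05 and *S100b* did not (0.0543 from edgeR, adjusted p = 0.705). DESeq2 called 0 of the 8 and, of the genes to which it gave an adjusted p, 0.523% higher and 1.5% lower. When mice with the same replicate number were fitted as blocks in edgeR, 0 of the 7 had an adjusted p under 0.05, where 0.164% of all genes tested were higher and 0.877% lower.

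**Figure D2:**
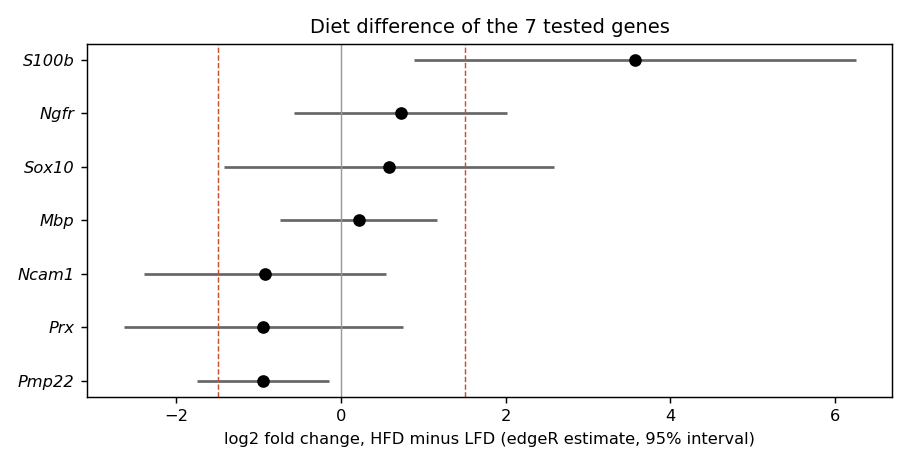
Log2 fold change of the 7 tested genes, HFD minus LFD, as edgeR estimates (points) with 95% intervals (bars). Dashed lines mark a log2 fold change of 1.5 in either direction, and the intervals of *S100b* and *Pmp22* leave out 0.

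*S100b* (ENSMUSG00000033208, chr10:76253853-76261159 on the plus strand of GRCm38) was listed at 87.5, 70.6 and 14.6 TPM in HFD replicates 1, 2 and 3 and at 10.2, 2.34 and 2.85 TPM in LFD replicates 1, 2 and 3. The rounded counts behind these levels were 2704, 1593 and 356 in HFD-fed and 254, 46 and 48 in LFD-fed mice. All 3 HFD-fed mice thus had the higher TPM, but HFD replicate 3 lay near LFD replicate 1. On a log2 scale of counts normalized for library size (log2 CPM), HFD replicate 3 with 3.94 lay below LFD replicate 1 with 4.03, so that the diets overlapped there. Mean TPM ± SD was 57.6 ± 38.2 in HFD-fed mice and 5.11 ± 4.37 in LFD-fed mice (n = 3). The log2 fold change was 3.57 (SE 1.13, 95% interval 0.89 to 6.25), with an unadjusted p of 0.0164 and an adjusted p of 0.346 from edgeR's quasi-likelihood test. The exact permutation test of log2 CPM over the 6 mice gave p = 0.2, where 0.1 is the smallest that 3 against 3 allow. When same-numbered mice were fitted as blocks, edgeR gave 3.66 with an adjusted p of 0.0630, and *S100b* was the higher in the HFD-fed mouse of 3 of 3 same-numbered pairs. DESeq2 gave 3.55 with an adjusted p of 0.0114, which also missed the limit of 0.01. The log2 fold change was 5.17 without LFD replicate 1 and 2.72 without HFD replicate 1, which are the highest and the lowest value over the mice left out in turn.

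*S100b* is used as a glial marker and is also made by brown adipocytes. The levels of brown adipocyte genes are therefore given beside it. *Ucp1*, the uncoupling protein of brown fat, was higher in all 3 HFD-fed mice (values above) with a log2 fold change of 3.67 (SE 1.56, adjusted p = 0.480 from edgeR). *Cidea*, a lipid droplet protein of brown fat, was listed at 468, 734 and 222 TPM in HFD replicates 1, 2 and 3 and at 222, 18.9 and 38.6 TPM in LFD replicates 1, 2 and 3. For *Cox7a1*, a subunit of cytochrome c oxidase, the levels were 916, 930 and 224 TPM in HFD-fed and 297, 125 and 45.9 TPM in LFD-fed mice. In each of these genes and in *S100b*, HFD replicates 1 and 2 held the highest levels and LFD replicate 1 was the highest of its diet. The same held for *Elovl3*, at 26.8, 62.65 and 5.64 TPM in HFD-fed and 18.2, 0.71 and 1.59 TPM in LFD-fed mice. It did not hold for *Prdm16*, at 5.08, 12.3 and 7.52 TPM in HFD-fed and 3.22, 3.79 and 3.36 TPM in LFD-fed mice. Nor did it for *Ppargc1a*, at 11.2, 16.0 and 6.48 TPM in HFD-fed and 4.08, 7.45 and 1.84 TPM in LFD-fed mice. This order of mice was noticed in the values, and how many of all genes tested hold it was not counted. It was not particular to brown fat genes, since the neurotrophic receptor gene *Ntrk3* also held it in TPM. The percentage of counts from mitochondrially encoded genes followed the same order. The adipocyte genes *Adipoq* (log2 fold change -1.19), *Plin1* (-0.78), *Fabp4* (-0.35) and *Adrb3* (-0.36) lay in the other direction between the diets. The summed TPM of all 10 brown adipocyte markers overlapped between the diets, with 5593 to 11960 in HFD-fed mice and 3450 to 12053 in LFD-fed mice. Of these 10 markers, 6 had a log2 fold change above 0, 2 of them did not overlap in log2 CPM and were higher, where 6.72% of all genes tested were, and 0 were called. The part of brown adipocytes in the level of *S100b* was not tested.

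Relative to *Mbp*, *Pmp22*, *Sox10* and *Prx* in the same mouse, but not to *Ngfr*, the TPM of *S100b* was higher in all HFD-fed mice. These ratios were chosen after the values were seen, so their p-values are not independent support. The TPM of *S100b* divided by that of *Mbp* was 10.8, 3.77 and 1.3 in HFD replicates 1, 2 and 3 and 0.522, 0.195 and 0.266 in LFD replicates 1, 2 and 3, which do not overlap. Divided by *Pmp22* it was 1.87, 0.937 and 0.227 in HFD-fed and 0.0692, 0.0180 and 0.0215 in LFD-fed mice. Over *Sox10*, the glial transcription factor, it was 1251, 76.7 and 34.6 in HFD-fed and 24.8, 8.67 and 15 in LFD-fed mice, with only 4 *Sox10* counts behind the first value. Its ratio to *Prx* was also higher in all HFD-fed mice, and its ratio to *Ngfr* overlapped between the diets. The exact permutation p was 0.1 for each ratio without overlap, the smallest possible, and 0.2 for the ratio to *Ngfr*. Since *S100b* was higher and *Pmp22* lower in TPM in all HFD-fed mice, their ratio could not overlap, and its p was fixed in advance.

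**Figure D3:**
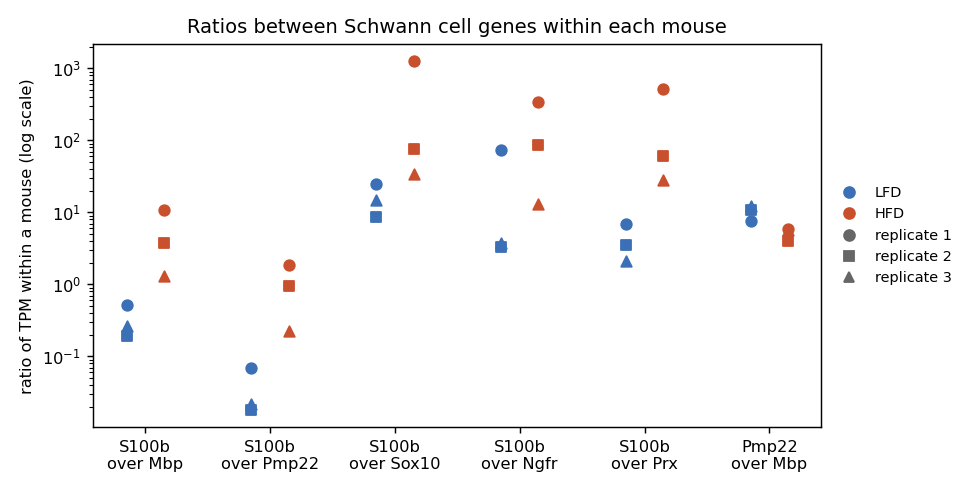
TPM ratios between Schwann cell genes within each mouse on a log scale, blue for LFD and red for HFD, with marker shape for the replicate number. The ratios of *S100b* to *Mbp*, *Pmp22*, *Sox10* and *Prx* are higher and the ratio of *Pmp22* to *Mbp* is lower in all 3 HFD-fed mice, while *S100b* over *Ngfr* overlaps.

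Over the 6 mice, the gene whose log2 CPM followed *S100b* most closely, by the root mean square difference after centring each gene on its mean, was *Gm15241* (0.338), followed by *Pank1* (0.537), which encodes a kinase of coenzyme A synthesis. Among the other 6 tested genes, the nearest was *Mbp* at 1.95. The last part of *S100b* overlaps *Dip2a* on the opposite strand, and whether counting used strand is not given in the sources used here. *Dip2a* had 1197, 1268 and 902 counts in HFD-fed and 717, 692 and 1177 in LFD-fed mice. Its counts differed less between mice than those of *S100b*, and the part of *Dip2a* reads in the counts of *S100b* was not tested.

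*Pmp22* (ENSMUSG00000018217, chr11:63128982-63159547 on the plus strand), a membrane protein of compact myelin that is also made by fibroblasts and other cells outside nerve, was listed at 46.8, 75.3 and 63.96 TPM in HFD replicates 1, 2 and 3. Its level was 147, 130 and 133 TPM in LFD replicates 1, 2 and 3. In TPM, the highest HFD-fed mouse lay well below the lowest LFD-fed mouse. The diets did not overlap in log2 CPM either, but lay closer, with 6.43 in HFD replicate 2 and 6.79 in LFD replicate 3. This was 1 of the 7 tested genes, where 9.23% of all genes tested lay lower and 6.72% higher without overlap. Mean TPM ± SD was 62.0 ± 14.3 in HFD-fed mice and 136 ± 8.97 in LFD-fed mice (n = 3). The log2 fold change was -0.95 (SE 0.34, 95% interval -1.75 to -0.15), with an unadjusted p of 0.0263 and an adjusted p of 0.397 from edgeR, and the exact permutation p was 0.1. Fitted with replicate blocks it was -0.88 with an adjusted p of 0.18, and the level was lower in the HFD-fed mouse of each of the 3 same-numbered pairs. It was -0.55 without LFD replicate 1, which held the highest level, and -1.15 without LFD replicate 3.

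The fibroblast genes that could share *Pmp22* were partly lower in HFD-fed mice. Of 9 fibroblast and perineurial markers, 8 had a log2 fold change below 0 and 3 lay lower without overlap in log2 CPM, where 9.23% of all genes tested did. Their median was -1.19, beside -0.05 for all genes tested. *Dcn*, a matrix proteoglycan of fibroblasts, was listed at 171, 281 and 156 TPM in HFD-fed and at 357, 801 and 844 TPM in LFD-fed mice. The summed TPM of the 9 markers overlapped, with 2787 to 4804 in HFD-fed mice and 1772 to 26306 in LFD-fed mice. LFD replicate 1, the highest mouse in *Pmp22*, was the lowest of all in this sum. The part of fibroblasts, and that of the skeletal muscle markers that also lay lower in HFD-fed mice, in the level of *Pmp22* was not tested. The genes closest to *Pmp22* over the 6 mice were *Tmprss6* (0.0846) and *B3glct* (0.121), and the nearest of the other Schwann cell genes was *Mbp* (0.625).

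*Mbp* encodes the major cytosolic protein of compact myelin and, from another start, a form found in immune cells. It was listed at 8.07, 18.7 and 11.2 TPM in HFD replicates 1, 2 and 3 and at 19.5, 12.0 and 10.7 TPM in LFD replicates 1, 2 and 3. The diets overlapped throughout, and the highest mouse of each diet reached nearly the same level. Mean TPM ± SD was 12.7 ± 5.48 in HFD-fed mice and 14.1 ± 4.71 in LFD-fed mice, and log2 fold change was 0.22 (SE 0.40, 95% interval -0.74 to 1.17, adjusted p = 0.924 from edgeR). The sign differed between the scales, with a lower mean TPM and a fitted log2 fold change above 0. RSEM weights the length of a gene by its isoforms in each mouse, and for *Mbp* the effective length was between 2676 bases in LFD replicate 1 and 4285 bases in HFD replicate 1. The level of *Pmp22* over *Mbp* was 5.80, 4.02 and 5.71 in HFD-fed and 7.54, 10.8 and 12.4 in LFD-fed mice, without overlap (exact permutation p = 0.1). This ratio was also chosen after the values were seen.

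*Prx* (ENSMUSG00000053198, chr7:27499324-27520214 on the plus strand) encodes periaxin, which links the membrane of myelinating Schwann cells to their cytoskeleton and is also made by lung endothelium. It was listed at 0.17, 1.17 and 0.51 TPM in HFD-fed and at 1.49, 0.66 and 1.36 TPM in LFD-fed mice, from 18 to 128 counts. HFD replicate 2 lay among the LFD-fed mice. edgeR gave a log2 fold change of -0.94 (SE 0.71, 95% interval -2.64 to 0.75, adjusted p = 0.737 from edgeR). Of 7 endothelial markers, 6 had a log2 fold change above 0, with a summed TPM of 107 to 456 in HFD-fed and of 130 to 260 in LFD-fed mice. The part of endothelium in the level of *Prx* was not tested. An antisense gene, *Gm15541*, overlaps *Prx* with 19 to 45 counts per mouse, and its reads cannot be told apart from those of *Prx* if counting did not use strand.

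*Sox10* (ENSMUSG00000033006, chr15:79154908-79165240 on the minus strand), the marker of glial identity among the 8, had few counts. It was listed at 0.07, 0.92 and 0.42 TPM in HFD replicates 1, 2 and 3 and at 0.41, 0.27 and 0.19 TPM in LFD replicates 1, 2 and 3, from 4, 39 and 19 counts in HFD-fed and 19, 10 and 6 in LFD-fed mice. HFD-fed mice held both the lowest and the highest level. The log2 fold change was 0.58 (SE 0.84, 95% interval -1.42 to 2.59, adjusted p = 0.895 from edgeR), and it was -0.31 without HFD replicate 2. That interval includes differences in either direction, and it reflects the spread between mice as well as the few counts. Whether *Sox10* differed between the diets was therefore not resolved. HFD replicate 1, lowest in *Sox10*, was the mouse with the highest level of *S100b*.

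*Ngfr* (ENSMUSG00000000120, chr11:95568818-95587735 on the minus strand), the receptor of non-myelinating Schwann cells and of some perineurial and stromal cells, was listed at 0.26, 0.83 and 1.11 TPM in HFD-fed and at 0.14, 0.71 and 0.77 TPM in LFD-fed mice. It was the higher in the HFD-fed mouse of 3 of 3 same-numbered pairs, yet HFD replicate 1 lay below LFD replicates 2 and 3. Between the diets, log2 fold change was 0.72 (SE 0.54, 95% interval -0.57 to 2.01, adjusted p = 0.737 from edgeR). Replicate blocks gave an adjusted p of 0.316. Counts were between 9 and 65 per mouse.

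*Ncam1* (ENSMUSG00000039542, chr9:49502136-49798925 on the minus strand) had its lowest and its highest level in LFD-fed mice. It was listed at 1.48, 1.40 and 1.57 TPM in HFD replicates 1, 2 and 3, an SD of 0.0850 around a mean of 1.48, and at 0.79, 11.3 and 5.74 TPM in LFD replicates 1, 2 and 3. The HFD-fed mice thus lay close together between the LFD-fed ones. Its fitted log2 fold change was -0.93 (SE 0.62, 95% interval -2.39 to 0.54, adjusted p = 0.692 from edgeR) and -1.37 without LFD replicate 1. In counts the spread was smaller than in TPM, with 46 to 331 per mouse. The effective length differed as well, at 2105 bases in LFD replicate 2, 3250 bases in LFD replicate 1 and up to 4277 bases in the others.

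Muscle fibres that lose their nerve or form anew make *Ncam1*, and so do NK cells, so the levels of both are given. *Musk*, the receptor kinase of the neuromuscular junction, was listed at 0.72, 4.57 and 1.14 TPM in LFD replicates 1, 2 and 3 and at 0.04 to 0.21 TPM in HFD-fed mice. *Myog*, a transcription factor of forming muscle, was listed at 0.04, 7.43 and 0.65 TPM in LFD-fed mice and at no more than 0.04 TPM in HFD-fed mice. LFD replicate 2 was the highest in both, as in *Ncam1*, while LFD replicate 1 had muscle markers at a summed 4216 TPM and the lowest *Ncam1*. NK cell markers lay in the other direction, with 8 of 8 higher without overlap in log2 CPM, where 6.72% of all genes tested were, and a median log2 fold change of 2.82. The part of either cell type in *Ncam1* was not tested.

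*Th* (ENSMUSG00000000214, chr7:142892752-142931128 on the minus strand) had 0 counts in the 3 HFD-fed mice and 3, 5 and 0 counts in LFD replicates 1, 2 and 3, which is 0.12, 0.20 and 0 TPM. A count of 0 allows up to 3 counts, or 0.139 to 0.155 CPM in the HFD-fed mice, and this covers counting error only. *Th* did not pass the filter on low counts, and no fold change is given for it. With no filter, its unadjusted p from edgeR was under 0.05 on 8 counts in all, and 0 of all genes had an adjusted p under 0.05. A diet difference in *Th* was thus not resolved at this depth. *Dbh*, the enzyme of the last step to noradrenaline, was listed at 0 in 5 mice and at 0.03 TPM in LFD replicate 2. The defining enzymes of sympathetic neurons were thus at or near 0 in all 6 pieces of BAT.

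Promoter sequences were taken for the pair of genes with an unadjusted p under 0.05, to show the stretch before their start where a glial factor could be looked for. Each is the 250 bases upstream of a start in RefSeq on GRCm38.p6, on the plus strand, for *S100b* at chr10:76253586-76253835 and for the most upstream of the 4 *Pmp22* starts at chr11:63128732-63128981:
S100b: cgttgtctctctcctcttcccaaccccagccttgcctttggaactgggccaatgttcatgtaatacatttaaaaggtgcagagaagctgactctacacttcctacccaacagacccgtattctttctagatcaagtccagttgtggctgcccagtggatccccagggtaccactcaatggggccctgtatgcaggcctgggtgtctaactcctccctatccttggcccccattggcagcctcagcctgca
Pmp22: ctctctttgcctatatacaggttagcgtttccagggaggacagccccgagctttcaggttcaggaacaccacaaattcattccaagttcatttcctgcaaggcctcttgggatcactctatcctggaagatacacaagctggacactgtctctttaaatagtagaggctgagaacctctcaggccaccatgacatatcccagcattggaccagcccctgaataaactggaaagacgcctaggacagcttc
The windows of 5 of the 8 genes were read, 8 windows in all, and searched on both strands for the SOX cores ACAAAG and ACAATG and the EGR core GCGTGGGCG, letters that SOX10 and EGR2 can bind. None of the 8 windows held a match, so no base is in capitals. Of 32851 mouse windows of the same length, 16.5% held the first, 10.7% the second, 0.536% the third and 25.7% any of the 3. This says only that these letters are not in these windows.

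The other genes of the nerve were read from 6 lists of 67 genes: myelin, non-myelinating Schwann cells, sympathetic transmitter synthesis, axon structure, neurotrophic ligands and their receptors. Of these, 41 passed the filter on low counts, and edgeR called 0 of them. At an unadjusted p under 0.05, 3 were higher and 4 lower, where 3.86% of all genes tested were higher and 6.62% lower. Without overlap in log2 CPM, 4 lay higher and 3 lower, where 6.72% and 9.23% of all genes tested did. The median log2 fold change was -0.18, beside -0.05 for all genes tested. DESeq2 gave a fold change for 65 of the list genes and called 2, *Egr2* and *Npy*, both higher in HFD-fed mice. Of all genes to which it gave an adjusted p, 0.523% were called higher and 1.5% lower. Without LFD replicate 2, the edgeR log2 fold changes of the 7 genes with an unadjusted p under 0.05 were 2.15 for *Egr2*, 3.64 for *Npy*, 1.34 for *Gch1*, -1.92 for *Drp2*, -2.01 for *Scn7a*, -0.91 for *Lgi4* and -3.01 for *Nefm*, in the same directions as with all mice.

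**Figure D4:**
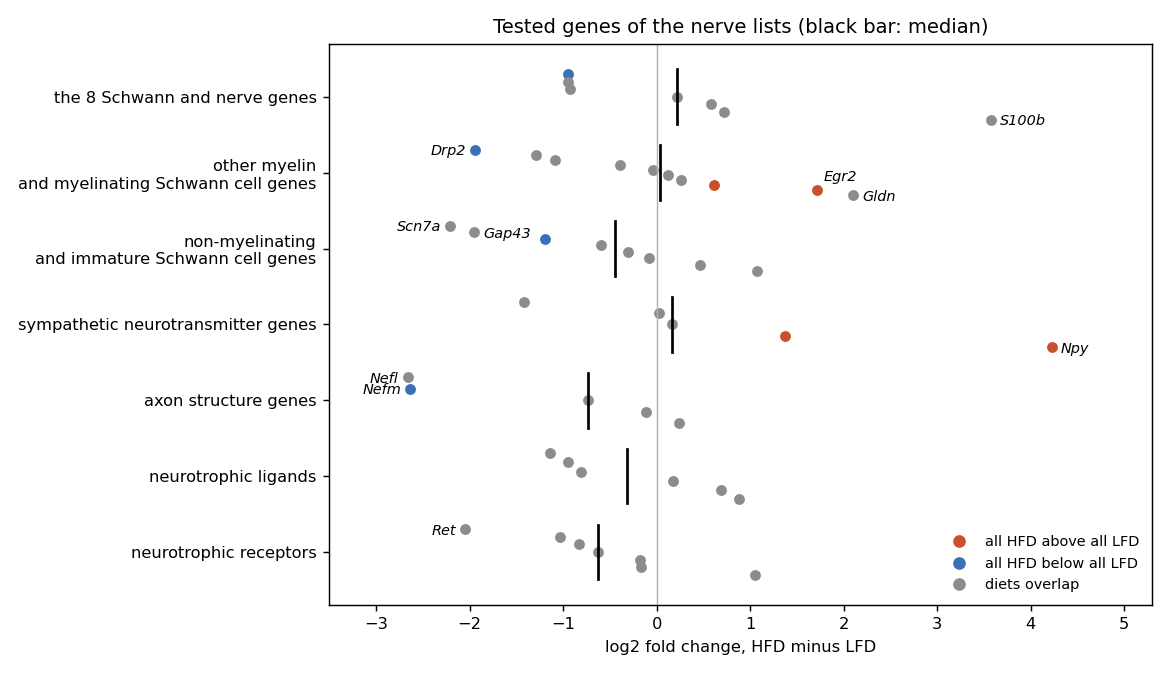
Log2 fold changes (HFD minus LFD, edgeR) of the tested genes of the 8 Schwann cell and nerve genes and of 6 further nerve lists, with black bars for list medians and colour for whether the diets overlap in log2 CPM. Genes past 1.5 in either direction are named, and most genes are grey, which stands for diets that overlap.

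The diets overlapped in log2 CPM in 7 of the 10 tested genes of the myelin list. Of the 16 further genes of myelin and myelinating Schwann cells, 10 were tested, 5 with a log2 fold change above 0 and 5 below, with a median of 0.04. HFD replicate 2 and LFD replicate 1 held the most *Mbp*, and the same pair of mice was highest in several further myelin genes. This pattern was noticed in the values: the pair held the highest TPM in 6 of the 16 genes, with *Mal*, *Cldn19*, *Ugt8a*, *Fa2h* and *Ncmap* among them, but 4 of the 6 had too few counts to pass the filter. Of the 10 tested genes it was 2, where 3.72% of all genes tested had this pair on top. *Cnp*, a myelin enzyme also found elsewhere, was listed at 8.57, 17.6 and 21.9 TPM in HFD-fed and at 9.27, 14.4 and 20.6 TPM in LFD-fed mice, a near match between same-numbered mice.

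Within the myelin list, *Egr2*, the transcription factor that drives myelination and is also induced in immune cells, was listed at 3.83, 5.34 and 4.98 TPM in HFD-fed and at 0.67, 2.35 and 1.51 TPM in LFD-fed mice. All 3 HFD-fed mice were higher, with a log2 fold change of 1.71 (SE 0.41, unadjusted p = 0.00447, adjusted p = 0.215 from edgeR) and of 1.73 with an adjusted p of 0.00316 from DESeq2. Of 8 macrophage markers, 2 lay higher and 1 lower without overlap in log2 CPM, where 6.72% and 9.23% of all genes tested did. *Cd68* and *Adgre1* were higher, with log2 fold changes of 1.72 and 1.36, though both overlapped in TPM, and the scavenger receptor *Cd163* was lower, with -1.53 (adjusted p = 0.241 from edgeR). The summed TPM of the 8 markers overlapped, with 1792 to 3590 in HFD-fed mice and 568 to 4203 in LFD-fed mice. Their part in *Egr2* was not tested. *Drp2*, which binds periaxin in Schwann cells, was listed at 0.19, 0.51 and 0.13 TPM in HFD-fed and at 1.08, 1.46 and 0.87 TPM in LFD-fed mice. It lay lower in all HFD-fed mice, with a log2 fold change of -1.94 (SE 0.50, unadjusted p = 0.00646, adjusted p = 0.245 from edgeR). *Gldn*, a protein of the node of Ranvier, had a log2 fold change of 2.10 and overlapped, with 1 to 163 counts per mouse. *Mag*, an adhesion protein of the inner myelin layer, lay higher in all HFD-fed mice in log2 CPM with a log2 fold change of 0.62 (adjusted p = 0.669 from edgeR), but overlapped in TPM, where the difference turned to -0.020 on log2(TPM + 1) and -0.073 on log2(TPM + 0.1). *Egr2* and *Mag* were named after their values were seen.

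The list of non-myelinating Schwann cell genes was dominated by *Scn7a*. The 13 genes summed to 15.4, 25.2 and 15.4 TPM in HFD-fed and to 53.5, 81.6 and 47.4 TPM in LFD-fed mice, without overlap. The 12 genes other than *Scn7a* summed to 5.68, 16.4 and 11.1 TPM in HFD-fed mice and to 11.0, 16.5 and 29.2 TPM in LFD-fed mice, which overlap. Of 8 tested genes, 6 had a log2 fold change below 0, with a median of -0.45. *Scn7a*, a sodium channel protein of glia that other stromal cells and muscle also make, was listed at 9.68, 8.86 and 4.34 TPM in HFD-fed and at 42.5, 65.0 and 18.3 TPM in LFD-fed mice. The fitted difference was -2.21 on the log2 scale (SE 0.70, unadjusted p = 0.0165, adjusted p = 0.346 from edgeR), and the diets overlapped in log2 CPM though not in TPM. Fitted with replicate blocks, it was -2.13 with an adjusted p of 0.048. *Lgi4*, a secreted Schwann cell protein needed for myelination, lay lower without overlap in log2 CPM, with a log2 fold change of -1.20 (SE 0.40, unadjusted p = 0.0212, adjusted p = 0.374 from edgeR), while its TPM in HFD replicate 2, at 4.98, was above the 3.76 of LFD replicate 1. *Cdh19*, a cadherin of Schwann cells, overlapped, with 0.33 to 1.57 TPM in HFD-fed and 0.64 to 1.84 TPM in LFD-fed mice.

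Several axon genes had their highest level in LFD replicate 3. *Nefl*, the light chain of neurofilaments, was listed at 11.1 TPM there and at 0.02 to 0.92 TPM in the other 5 mice. *Gap43*, a protein of growing axons and immature Schwann cells, was listed at 14.9 TPM there and at 0.38 to 1.65 TPM elsewhere, and *Ret*, the receptor of GDNF family ligands, at 24.2 TPM there and at 0.96 to 4.19 TPM elsewhere. With all mice, log2 fold changes were -2.66 for *Nefl*, -1.95 for *Gap43* and -2.05 for *Ret*. Without LFD replicate 3 they were -0.41, 0.15 and -0.45. *Nefm*, the medium chain, lay lower in all HFD-fed mice with a log2 fold change of -2.63 (unadjusted p = 0.0167, adjusted p = 0.346 from edgeR), which was -1.34 without LFD replicate 3. This mouse held the highest TPM in 4 of the 5 tested axon genes, and in 42.4% of all genes tested. *Tubb3*, a neuronal tubulin, was 14.6 TPM in this mouse and 0.25 to 5.05 TPM in the others, and *Uchl1*, a neuronal deubiquitinase, was 15.5 TPM and 3.02 to 7.48 TPM.

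Of 11 genes of transmitter synthesis, 5 were tested, 4 with a log2 fold change above 0, and 2 were higher at an unadjusted p under 0.05. Their median was 0.17, but 1.59 without LFD replicate 3, 1.19 with replicate blocks and -0.29 without LFD replicate 1. *Npy*, the peptide that sympathetic nerves release with noradrenaline and that some immune cells make, was listed at 3.34, 2.66 and 3.16 TPM in HFD-fed and at 0, 0 and 0.68 TPM in LFD-fed mice, from 36, 21 and 27 counts against 0, 0 and 4. All HFD-fed mice were higher, with a log2 fold change of 4.22 (SE 1.01, unadjusted p = 0.00447, adjusted p = 0.215 from edgeR). DESeq2 gave 4.38 with an adjusted p of 0.00286, and both estimates rest on few counts in LFD-fed mice. *Gch1*, which makes the cofactor that tyrosine hydroxylase needs, was listed at 2.55, 4.60 and 7.47 TPM in HFD-fed and at 1.06, 2.26 and 3.44 TPM in LFD-fed mice. It lay higher in each same-numbered pair and in log2 CPM without overlap, with a log2 fold change of 1.38 (SE 0.35, unadjusted p = 0.00617, adjusted p = 0.242 from edgeR). *Ddc*, the enzyme after tyrosine hydroxylase, had a log2 fold change of -1.42 (adjusted p = 0.618 from edgeR), and that of *Slc18a2*, the vesicle transporter of amines, was 0.02.

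The tested ligands and receptors of nerve growth overlapped between the diets in log2 CPM. The ligand *Ntf5*, which did not pass the filter on low counts, had no more than 10 counts in any mouse. It was listed at 0.03, 0 and 0.03 TPM in HFD-fed and at 0.24, 0.39 and 0.13 TPM in LFD-fed mice, without overlap. Of 9 ligands, 6 were tested with a median log2 fold change of -0.32, and of 8 receptors, 7 were tested with a median of -0.63. *Nrg4*, a neuregulin that brown adipocytes secrete, was listed at 42.0, 58.5 and 27.1 TPM in HFD-fed and at 124, 115 and 19.7 TPM in LFD-fed mice. *Sort1*, which forms a receptor with p75, had a log2 fold change of -0.83, *Ntrk2* -0.18, *Ntrk3* 1.05 and the ligand *Ntf3* -1.14, each with overlap.

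Likeness over the 6 mice was described by the root mean square difference of centred log2 CPM. Among the 7 tested genes, the nearest pair was *Mbp* and *Pmp22* at 0.625. Over all genes tested, those nearest to *Mbp* were *Supv3l1* (0.0294) and *Ftsj2* (0.0841), to *Ngfr* *Uba7* (0.0578) and *Gm24539* (0.0640), and to *Sox10* *Cish* (0.226) and *Usp43* (0.298). For *Prx* these were *Slc35f1* (0.323) and *Adcy1* (0.358), and for *Ncam1* *AA386476* and *Ccdc136* (0.195 each). The nearest of so many genes is bound to be close, and these values describe 6 points only.

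**Figure D5:**
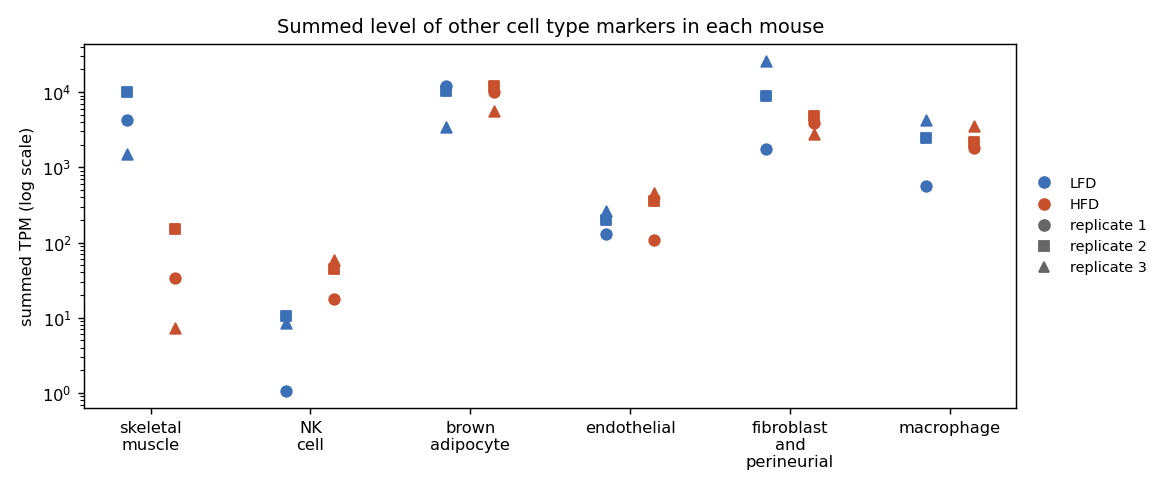
Summed TPM of marker genes of other cell types in each mouse, on a log scale, by diet and replicate number. Skeletal muscle markers are lower and NK cell markers higher in all 3 HFD-fed mice, and the 4 other sums overlap between the diets.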

How the data were processed

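BAT of 3 HFD-fed and 3 LFD-fed mice was compared, with diet and replicate number from the labels. The authors trimmed the reads with Trimmomatic 0.36 and quantified them with RSEM 1.3.0 on GRCm38, after removal of ribosomal RNA. The authors deposited, for 47729 genes in each mouse, expected counts, which are not normalized and divide reads that match several genes. The authors also deposited TPM, which divides these counts by effective length and scales each mouse to the same total. A gene with few counts is therefore measured with a large counting error.

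Expected counts were rounded and tested across all genes in R 4.3.3 with edgeR 4.0.16 (quasi-likelihood test, TMM normalization, edgeR's filter on low counts, Benjamini-Hochberg adjustment), after a trial on simulated data. SE is the absolute log2 fold change divided by the square root of F. Log2 CPM used a prior count of 2. The study used DESeq2 1.10.1. DESeq2 1.42.0, limma 3.58.1 on log2(TPM + 1) and log2(TPM + 0.1), RLE size factors, other filters, mitochondrially encoded genes left out, a replicate block and each mouse left out were the alternatives. Deviations from the diet mean in same-numbered mice correlated over genes with r of 0.498, 0.229 and 0.522, all above 0.1, so the numbers were treated as pairs in the block. Whether the study matched these mice is not given in the sources used here. The block was thus chosen from these same data, and its p-values are not independent support. Single values were compared by exact, two-sided permutation tests.

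The 8 genes and the lists were chosen with earlier results of these data known. Besides the 8 genes, each list names its 2 genes with the highest mean TPM and its 2 with the largest log2 fold change among those tested, and for each gene the 2 genes nearest in log2 CPM are named. Of the genes so named, 2 are not reported here. Markers of other cell types are named where they also make one of the 8 genes. Positions are those of GENCODE M21, and promoter windows those of RefSeq. Other genes and the other columns of the files were not used here.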

Additional observations from a re-analysis of the deposited data

How the results depend on the processing

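None of the 8 genes was called under any alternative. For the other nerve lists, DESeq2 called 2 of 65 genes in place of 0. Over all genes DESeq2 called 411 in place of 0, which was 0.523% higher and 1.5% lower of the 20275 genes with an adjusted p. Limma on log2(TPM + 1) called 1 of 17668 genes, in place of 0. The replicate block changed no call of the 8 genes or the nerve lists, with a log2 fold change of 3.66 for *S100b* and -0.88 for *Pmp22* under this pairing. Over all genes it raised the number at an adjusted p under 0.05 from 0 to 184, with 29 higher and 155 lower, and 1 nerve-list gene, *Scn7a*, was among them. Leaving out LFD replicate 3 raised the same number from 0 to 222. *Mbp* reversed to -0.17 on log2(TPM + 1) and to -0.19 on log2(TPM + 0.1), where the median of all genes was -0.18 and -0.22 in place of -0.05, and to -0.067 without LFD replicate 3, with a range of -0.067 to 0.75 over the mice left out. *Sox10* reversed to -0.31 without HFD replicate 2, with a range of -0.31 to 1.32. The cause was not tested. The other 5 tested genes kept their direction under every alternative that gave them a value, with ranges over the mice left out of 2.72 to 5.17 for *S100b*, -1.15 to -0.55 for *Pmp22*, -1.74 to -0.27 for *Prx*, -1.37 to -0.54 for *Ncam1* and 0.39 to 1.01 for *Ngfr*. The 2 genes at an unadjusted p under 0.05 became 4 without LFD replicate 1, which added *Mbp* and *Ncam1*, and 1 without LFD replicate 2 or when any 1 of the HFD-fed mice was left out. Over all 17668 genes tested, 682 were higher and 1169 lower at this limit. These became 1106 and 1521 of 18392 without LFD replicate 1, and 487 and 814 of 18190 without LFD replicate 2. Without HFD replicates 1, 2 and 3 in turn they were 691 and 1087 of 18473, 397 and 734 of 18293, and 396 and 710 of 18240. With no filter on low counts, 3 of the 8 genes were at this limit, with *Th* added on 8 counts in all. Of all 29856 genes then tested, 976 were higher and 1626 lower. With at least 10 counts in every mouse, 5 of the 8 genes were tested, and *Sox10* and *Ngfr* had no value. Depth limits *Th*, *Sox10* and *Ngfr* most, and with 3 mice per diet an exact permutation test of a single value cannot go below 0.1.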
